A study of Mus musculus with 2 samples.

Results

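The Toll-like receptor genes Tlr1 to Tlr9 and the adaptor gene Myd88 were examined in sorted splenic T cells of the mouse. Members were chosen by name, and all non-control probes whose transcript accession belongs to one of them were taken. Of the 10 genes, 9 had a probe, against 17178 named genes in all, and these 9 genes were covered by 10 probes on 37 spots. No probe matched Tlr5. The study hybridised RNA of CD4+ helper T cells to 1 array and RNA of CD8+ cytotoxic T cells to another. Both populations were sorted from splenocytes of wild-type mice of the strain given as C57B6, with no treatment named, and the labels also call them CD4SP and CD8SP. The sources used here do not give the number and age of the mice, whether they were pooled, or the antibodies of the sort. With 1 array per cell type there were no biological replicates and so no tests, and every difference below compares these 2 arrays.

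Toll-like receptors recognise conserved molecules of microbes and start innate immune responses. Tlr1, Tlr2, Tlr4, Tlr5 and Tlr6 act mainly at the cell surface on lipid and protein ligands, whereas Tlr3, Tlr7, Tlr8 and Tlr9 sense nucleic acids inside endosomes. Most of them signal through Myd88, which recruits kinases of the Irak family, while Tlr3 uses the adaptor Ticam1 (TRIF). Macrophages, dendritic cells and B cells are the cells best known for these receptors, and T cells also carry some of them.

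The promoters of 8 of the 10 members were found in the RefSeq-derived promoter table of build GRCm38.p6, which lists 10 start sites for them. Those of Tlr3, the member that differed most between the arrays, of Tlr2, whose probe had replicate spots, and of the shared adaptor Myd88 are printed from 250 bases before the annotated start site to the base before it, 5′ to 3′ along the gene. Capitals mark matches, on either strand, to 4 motifs. These were AANNGAAA (the core bound by interferon regulatory factors), the tandem repeat of interferon response elements (GAAA, any 2 bases, GAAA, which always holds the former), a simplified NF-kB motif (GGGA, any 4 bases, CC) and GAGGAAG (a PU.1-type ETS motif).
Tlr3 (chr8:45410381-45410630, minus strand): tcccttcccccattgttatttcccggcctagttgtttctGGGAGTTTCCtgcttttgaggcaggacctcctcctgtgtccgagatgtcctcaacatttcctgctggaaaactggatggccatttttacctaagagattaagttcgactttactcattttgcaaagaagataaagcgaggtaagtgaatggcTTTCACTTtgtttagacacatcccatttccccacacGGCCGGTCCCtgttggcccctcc
Tlr2 (chr3:83841609-83841858, minus strand): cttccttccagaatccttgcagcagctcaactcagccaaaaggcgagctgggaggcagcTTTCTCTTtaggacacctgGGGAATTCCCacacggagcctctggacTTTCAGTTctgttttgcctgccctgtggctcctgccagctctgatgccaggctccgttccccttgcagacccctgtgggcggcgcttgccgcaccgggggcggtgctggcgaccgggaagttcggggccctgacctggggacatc
Myd88 (chr9:119340019-119340268, minus strand): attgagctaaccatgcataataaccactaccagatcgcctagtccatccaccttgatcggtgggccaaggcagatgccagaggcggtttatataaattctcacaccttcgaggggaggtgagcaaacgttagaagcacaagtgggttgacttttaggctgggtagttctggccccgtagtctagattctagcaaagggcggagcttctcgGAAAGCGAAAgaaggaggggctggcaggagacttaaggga

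In the Tlr3 window the interferon regulatory factor core was matched 59 to 52 bases before the start on the opposite strand, and the NF-kB motif 211 to 202 and 23 to 14 bases before it. Tlr2 held the palindrome GGGAATTCCC 172 to 163 bases before its start, which matches the NF-kB motif on both strands, and 2 interferon regulatory factor cores. Myd88 held the tandem repeat GAAAGCGAAA 40 to 31 bases before its start. Among all 32851 promoters of that length, 21.3% matched AANNGAAA, 2.98% the tandem repeat, 17.6% the NF-kB motif and 10.6% GAGGAAG. The corresponding counts among the members were 5, 2, 3 and 2 genes. These matches describe letters and were not tied to the array values.

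Most receptors of the list were measurable in both sorted populations. Well above background, as called by the scanner software for each spot, were 7 members on both arrays (Tlr1, Tlr2, Tlr4, Tlr6, Tlr7, Tlr9 and Myd88). Tlr3 was well above background on the CD8+ sample alone, and Tlr8 on neither. Among all named genes, 76.0% passed this call on at least 1 array and 69.6% on both. In a bulk sample, fewer cells of a type and less RNA per cell cannot be told apart, so a level on an array may come from all cells or from a few. All 9 T cell markers with a probe were well above background on both arrays. Cd8a was 106-fold higher in the CD8+ sample and Cd4 4.12-fold higher in the CD4+ sample, as the labels have them. The Cd4 probe was dim, at 307 on the CD4+ sample and 66.0 on the CD8+ sample. Its fold was 2.58 with normexp background correction and 2.87 with the authors' series values. The T cell receptor chains Cd3e and Cd3g differed by 0.50 and 0.08 on the log2 scale.

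No member measured on both arrays differed by as much as 2-fold. Each array was scaled by its 75th percentile before the arrays were compared, and differences are given as log2 of the CD8+ level over the CD4+ level. Over the 7 members the median difference was 0.00, ranging from -0.63 to 0.37, with 4 higher in the CD8+ sample and 3 in the CD4+ sample. Over all 11959 genes measured on both arrays the median was 0.02, and 5.78% were at least 2-fold apart (1.95% higher in the CD8+ sample and 3.83% in the CD4+ sample). When these genes were divided into 4 bands of equal size by mean level, the 3 bands that hold members had 8.39%, 2.71% and 1.87% that far apart, from the dimmest of these to the brightest. Tlr2, Tlr4 and Tlr7 lay in the dimmest of these bands, Tlr6 and Tlr9 in the next and Tlr1 and Myd88 in the brightest. Technical spread was the only error available. Replicate spots of 1 probe gave log2 differences with an SD of 0.16, and separate probes for 1 gene gave 0.23.

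**Figure D1:**
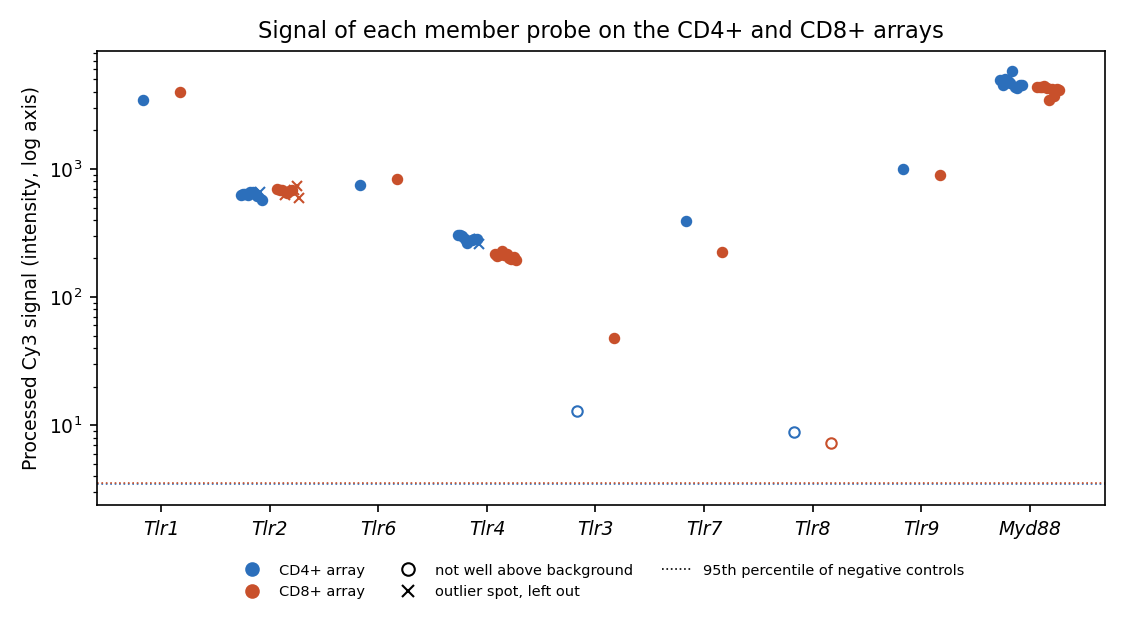
Processed Cy3 signal (intensity, log axis) of each spot of the member probes on the CD4+ sample (blue) and the CD8+ sample (orange), before scaling; open circles are spots not well above background, crosses are outlier spots left out, and the dotted lines are the 95th percentile of the negative control spots (3.45 and 3.53). For Tlr3, with the probe of the higher level shown, the CD8+ spot at 47.9 stands above the open CD4+ circle at 12.9, while the points of the other members lie close together on both arrays.

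Among the surface receptors, the gene of Tlr2, which recognises bacterial lipoproteins, and those of its partners Tlr1 and Tlr6, which pair with it and set its choice among lipoproteins, were all slightly higher in the CD8+ sample. Tlr2 was measured by 1 probe with 10 spots. On the CD4+ sample the 9 spots kept had processed signals with a lowest value of 577, a median of 636 and a highest value of 664. On the CD8+ sample the 6 spots kept ran from 646 over a median of 680.5 to 699.8. After scaling the spots of the arrays did not overlap, at 1.14 to 1.31 times the 75th percentile in the CD4+ sample and 1.44 to 1.56 times in the CD8+ sample, whereas the unscaled signals did overlap. The log2 difference was 0.28, or 1.22-fold, and among the 6 spot pairs with neither spot left out it was 0.25 ± 0.06 (SD, n = 6 spot pairs), higher in the CD8+ sample in 6 of 6. Outlier marks removed 1 spot on the CD4+ sample and 4 on the CD8+ sample, and with all spots kept the difference was 0.26. Over all genes 35.7%, and 42.6% of its own band by level, differed by at least as much as Tlr2, so its difference was of an ordinary size.

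Tlr1 was measured by 1 spot, which read 3481 ± 348 (processed signal with the software's error) on the CD4+ sample and 3970 ± 397 on the CD8+ sample. Its log2 difference was 0.37, or 1.29-fold in favour of the CD8+ sample, and 27.0% of all genes differed by at least as much. Among the genes of the brightest band, to which Tlr1 belongs, that share was 12.8%. Tlr6, also on 1 spot, had 747 ± 74.8 on the CD4+ sample and 839 ± 84.0 on the CD8+ sample, a log2 difference of 0.34 or 1.27-fold. For Tlr6 29.1% of all genes, and 22.75% of its own band by level, differed by at least as much. The propagated error of a difference between single spots was 0.20 for each of these genes, so both differences were above this error but below 2 times its size. Tlr1 and Tlr6 are close relatives and neighbours on chromosome 5, and whether either probe also binds the other transcript was not tested.

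Tlr4, the receptor for bacterial lipopolysaccharide, lay in the opposite direction. Its probe had 10 spots, of which 8 were kept on the CD4+ sample, with signals from 264 over a median of 285 to 307. The 10 spots on the CD8+ sample ran from 193 over a median of 211 to 229. After scaling, the CD8+ spots (0.430 to 0.509 times the 75th percentile) lay below the CD4+ spots kept (0.519 to 0.603 times) with no overlap. That separation relied on the outlier marks. The dimmest CD4+ spot left out had a scaled log2 level of -0.976, against -0.975 for the highest CD8+ spot. When each array was scaled by its median instead, the ranges of the spots kept overlapped (5.94 to 7.03 against 6.50 to 7.55 times the median). The log2 difference was -0.29, or 1.22-fold higher in the CD4+ sample. Among spot pairs with neither spot left out it was -0.28 ± 0.09 (SD, n = 8 spot pairs), and 8 of 8 were lower in the CD8+ sample. Over all genes 35.1% differed by at least as much, so the difference was of an ordinary size for these arrays.

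Among the endosomal receptors, Tlr3, which senses double-stranded RNA, showed the largest difference of the list. Its brighter probe read 12.9 ± 2.91 on the CD4+ sample, which was not well above background, and 47.9 ± 5.67 on the CD8+ sample. The spot's median pixel brightness was 59 against a local background of 52 on the CD4+ sample and 97.5 against 54 on the CD8+ sample. Its own dim CD4+ level (-5.30 on the scaled log2 axis) lay at about the lowest level called well above background on that array. Set against that level, Tlr3 was 4.19-fold higher in the CD8+ sample (log2 difference 2.07). This bound leaves out the error of the CD4+ reading, so the true fold may be smaller. The second probe of Tlr3 was not well above background on either array, at 2.59 ± 2.58 on the CD4+ sample and 14.9 ± 3.49 on the CD8+ sample, and so gives no fold.

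The Tlr3 value rested on 1 dim spot per array. Of the 182 genes measured on the CD8+ sample alone, 31.3% had a bound of at least 2-fold and 6.59% a bound at least as high as that of Tlr3. Of the 153 negative control spots, 1 was at or above the Tlr3 signal on the CD8+ sample and 2 on the CD4+ sample, against a median of 3.19 and 3.03. With normexp background correction the bound was 1.70-fold and with the authors' series values, which are not background-subtracted, 1.84-fold, so the 2-fold threshold was then missed while the direction held.

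Tlr7, a receptor for single-stranded RNA, had the largest difference among the members measured on both arrays. Its 1 spot gave 389 ± 39.0 on the CD4+ sample and 223 ± 22.5 on the CD8+ sample. The log2 difference of -0.63 made it 1.55-fold higher in the CD4+ sample, beyond the spread of 0.16 between replicate spots and of 0.23 between probes. Over all genes 12.7% differed by at least as much, and 16.9% of the genes in its band by level did. Tlr8, the neighbour of Tlr7 on chromosome X, was not well above background on either array, with 8.91 ± 3.04 on the CD4+ sample and 7.30 ± 3.20 on the CD8+ sample. A Tlr8 transcript was thus not measurable by this probe, which does not show that it is absent.

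Tlr9, the receptor for unmethylated CpG DNA, was level between the arrays at the precision of 1 spot. Its signal was 1005 ± 100.5 on the CD4+ sample and 891 ± 89.2 on the CD8+ sample, and after scaling the log2 difference was 0.00 with a propagated spot error of 0.20. The difference was slightly below 0 under normexp (-0.02) and above 0 with median scaling (0.15), so it had no settled direction. Whether it differed from Tlr7 in this was not tested, because each rests on 1 spot per array.

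Myd88, the adaptor that links these receptors to the Irak kinases, was well above background on all 10 of its spots on both arrays. The signals ran from 4303 over a median of 4617 to 5771 on the CD4+ sample and from 3439 over a median of 4258 to 4409 on the CD8+ sample. After scaling the spots of the arrays overlapped broadly, at 8.46 to 11.4 and 7.64 to 9.80 times the 75th percentile. The log2 difference was -0.02 ± 0.20 (SD, n = 10 spot pairs), with 6 pairs higher and 4 lower in the CD8+ sample. A single pair at -0.57 was the lowest, and the highest was 0.14. With median scaling the sign turned (0.13).

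**Figure D2:**
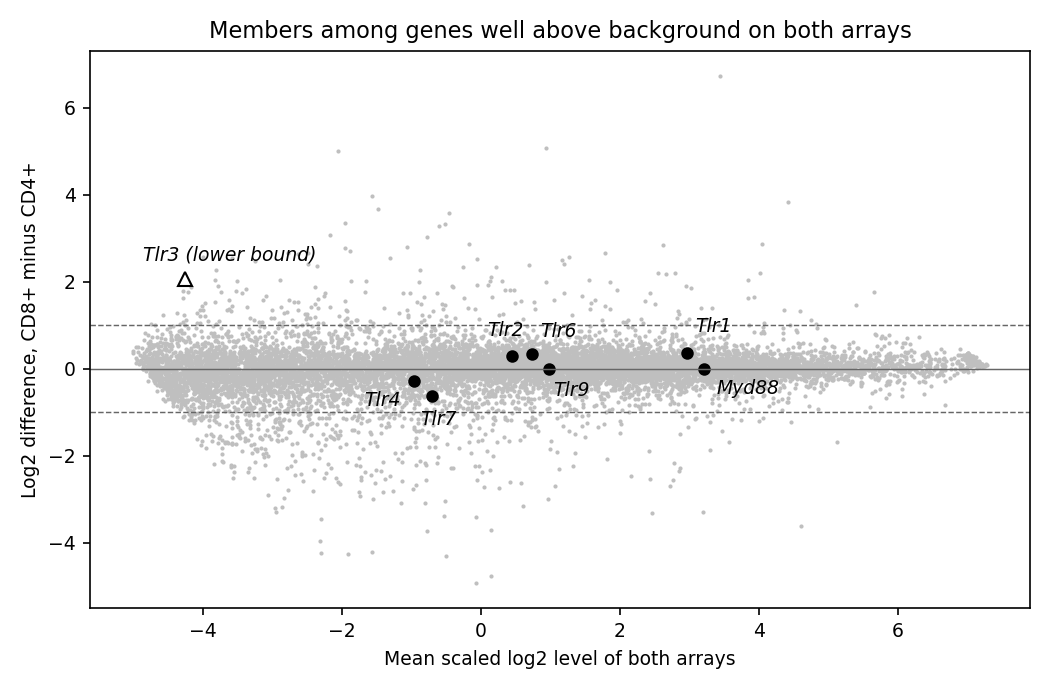
Log2 difference, CD8+ minus CD4+, against the mean scaled log2 level of both arrays for the 11959 genes well above background on both (grey) and for the members (black). Dashed lines mark 2-fold. The open triangle is the lower bound of Tlr3, which leaves out the error of its dim CD4+ signal. The 7 black points lie between -0.63 and 0.37, inside the dashed lines, and Tlr3 lies above them at 2.07.

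The other genes of the pathway were taken from a list of 52, of which 48 had a probe, 45 were measured on both arrays, 1 on the CD4+ sample alone and 2 on neither. Over the 45 genes the median difference was 0.00, against 0.02 for all genes, with 23 higher in the CD8+ sample and 22 in the CD4+ sample. At least 2-fold apart were 2 toward CD8+ and 3 toward CD4+, 5 of 45 in all, beside 1.95%, 3.83% and 5.78% of all genes. No probe matched the receptors Tlr11, Tlr12 and Tlr13 or the NF-kB subunit Nfkb1.

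Downstream of the receptors, 15 of the 16 kinases and ligases lay within 2-fold, with a median of 0.01, and 94.2% of all genes did so too. Irak4, the kinase that starts the Myd88 cascade, had signals of 355 and 319 on the CD4+ and CD8+ samples and a log2 difference of 0.02. Traf6, the ubiquitin ligase next in line, had 398 and 353 and a difference of 0.00. Irak1, a kinase that Irak4 activates, differed by 0.23 on its brightest probe and by 0.39 and 0.62 on its other probes. Irak2, its relative in sustained signalling, was 1.64-fold higher in the CD4+ sample (804 against 433). Irak3 (IRAK-M), an inhibitor of the pathway known from macrophages, was 2.50-fold higher in the CD4+ sample, at 111 against 39.3, but 1.45-fold with normexp.

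Among the adaptors, Tirap (MAL), which bridges Tlr2 and Tlr4 to Myd88, was 1.47-fold higher in the CD8+ sample, at 71.4 and 92.7 on the CD4+ and CD8+ samples. Ticam1, the adaptor of Tlr3, differed by 0.06, with signals of 226.5 and 209. Ticam2, its bridge to Tlr4, was not well above background on either array. Sarm1, a relative that degrades NAD, passed the background call only in the CD4+ sample, where it was at least 1.23-fold higher. That bound was 1.02-fold with the series values and fell to 1-fold, no difference, with normexp. No adaptor reached 2-fold.

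Accessory proteins had no common direction. Of the 5 co-receptor and ligand handling genes on both arrays 2 were toward CD8+ and 3 toward CD4+ (median -0.17), and the 6 trafficking genes were split 3 and 3 (median -0.04). The split of the trafficking genes depended on the processing. With median scaling 4 lay toward CD8+ and 2 toward CD4+ (median 0.10). With normexp or the series values 1 lay toward CD8+ and 5 toward CD4+ (median -0.07 in both). Ly96 (MD-2), which binds lipopolysaccharide together with Tlr4, was 1.68-fold higher in the CD4+ sample, with 699 against 367.5. Ly86 (MD-1), the partner of the Toll-like protein Cd180, was 1.57-fold higher in the CD4+ sample, while Cd180 itself was not well above background on either. Unc93b1, the chaperone that carries the nucleic acid receptors to endosomes, was 1.37-fold higher in the CD4+ sample, at 4938 against 3194. Lbp, which hands lipopolysaccharide to Cd14, differed by 0.06, and the chaperones Cnpy3 and Hsp90b1, which fold the receptors, by 0.09 and 0.00. The dimmer probe of Hsp90b1 gave -0.28. Cd36, a scavenger receptor that assists Tlr2 with Tlr6, was 2.65-fold higher in the CD8+ sample, at 163 against 69.5, or 1.86-fold with normexp.

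The remaining large differences were found in interleukin receptors that share Myd88 with the Toll-like receptors. Il1rl1, the interleukin 33 receptor, was 19.1-fold higher in the CD4+ sample (591 against 27.4) and stayed 7.09-fold higher with normexp. Il1r1, the interleukin 1 receptor, was 3.35-fold higher there (93.5 against 24.7, 1.58-fold with normexp). Il18rap, which with Il18r1 forms the interleukin 18 receptor, was 2.17-fold higher on the CD8+ side (100.4 against 52.2, 1.54-fold with normexp), while its partner chain Il18r1 differed by 0.12. The transcription factor genes had a median of 0.23 over 5 genes, with none 2-fold apart. Their median was 0.12 with quantile normalization and 0.41 with probe means.

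**Figure D3:**
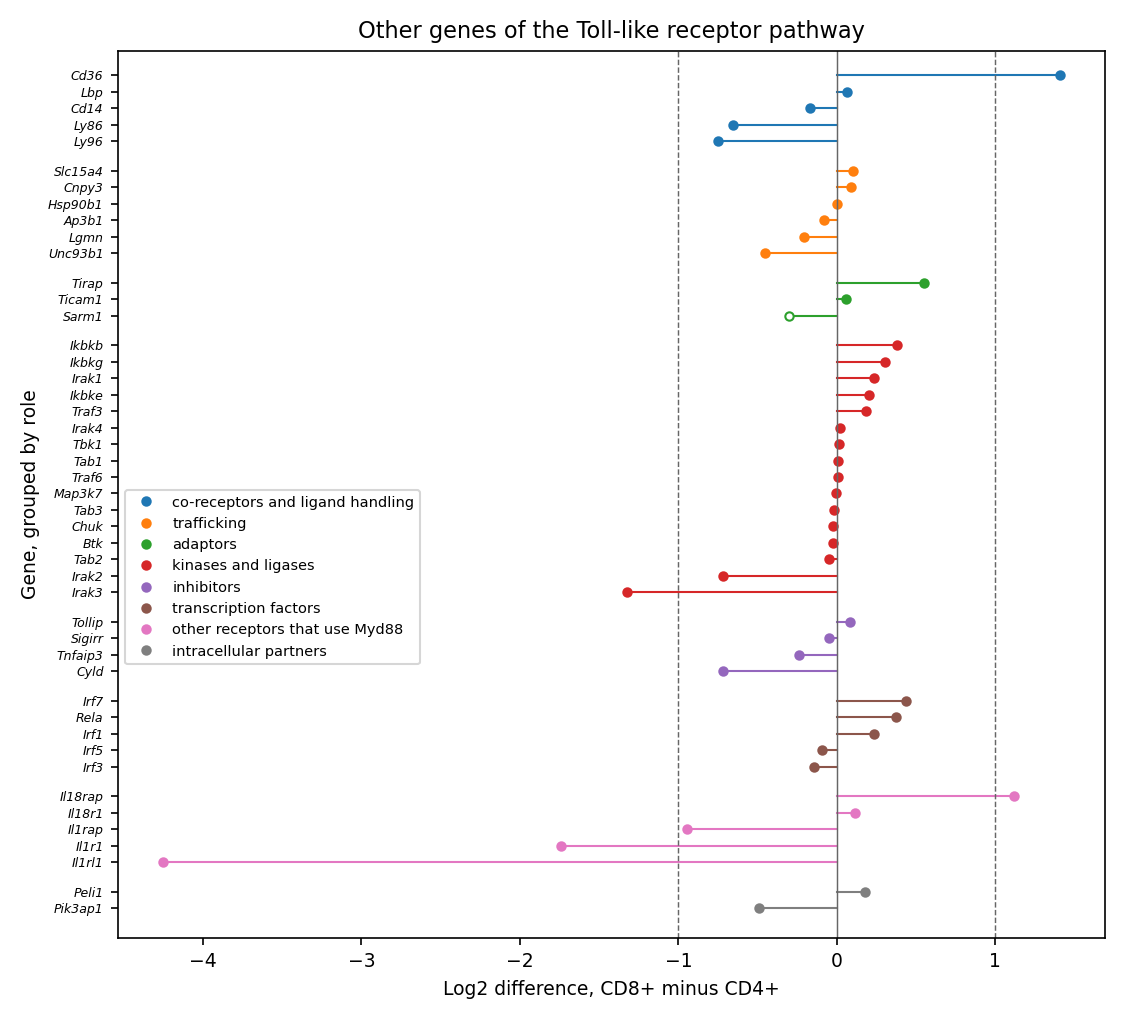
Log2 difference, CD8+ minus CD4+, of the pathway genes above background on at least 1 array, grouped by role; the open circle is the bound of Sarm1 and dashed lines mark 2-fold. Most genes lie inside the dashed lines, while Cd36 and Il18rap exceed them on the right and Irak3, Il1r1 and Il1rl1 on the left.

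Markers of the cells best known for Toll-like receptors were present on both arrays, and several moved between them. Of the 12 monocyte and macrophage markers, 11 had a probe, 10 were well above background on both arrays and Cx3cr1 on the CD4+ sample alone. Csf1r, the receptor that keeps macrophages alive, had signals of 3790 and 3482 on the CD4+ and CD8+ samples and, after scaling, a log2 difference of 0.05. Adgre1 (F4/80) had 9274 and 5908, a difference of -0.47, and Spic, a transcription factor of red pulp macrophages, 6473 and 4539, a difference of -0.34. The median difference of the list was -0.21 over 10 genes, of which 8 were higher on the CD4+ side (6 when scaled by the median), and Lyz2, lysozyme, was 4.49-fold higher there. The summed signal of the list was 87.2 times the 75th percentile on the CD4+ sample and 74.8 times on the CD8+ sample. Tlr4 and Tlr7 lay in the direction of the list's median, and the part of these cells in those values was not tested.

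Dendritic cell markers were lower in the CD8+ sample by more. The 6 conventional dendritic cell markers with a probe were above background on both arrays, with a median of -1.15 and a summed signal of 10.4 and 3.98 times the 75th percentile. In the CD4+ sample Cd209a was higher by 9.25-fold, Clec10a by 6.03-fold, Itgax (CD11c) by 2.48-fold and Flt3 by 1.99-fold. With normexp Cd209a was higher by 2.55-fold, or 3.38-fold with the series values. The probes of Xcr1 disagreed, at 0.35 for the brighter one and 3.03 for the other. The 6 plasmacytoid dendritic cell markers, of cells known for Tlr7 and Tlr9, had a median of -0.69, with summed signals of 57.9 and 55.4 times. Most of both sums came from Bst2, with signals of 20694 and 15528 on the CD4+ and CD8+ samples, so the sums mainly follow that gene. Siglech was 6.28-fold, Klk1 5.81-fold and Tcf4 2.19-fold higher in the CD4+ sample, in the direction of Tlr7, and Bst2 by 1.18-fold. With normexp these were 3.26-fold for Siglech, 3.53-fold for Klk1 and 1.93-fold for Tcf4. Ccr9, which T cells also carry, was 6.28-fold higher in the CD8+ sample. Tlr7 differed by -0.63 and Tlr9 by 0.00, and the part of these cells in those values was not tested.

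B cell markers lay in the direction of Tlr1, Tlr2 and Tlr6. The 9 T cell markers lay in that direction too, with a median of 0.27, 8 higher in the CD8+ sample and 1 in the CD4+ sample. All 11 B cell markers were well above background on both arrays, 10 were higher in the CD8+ sample, and their median difference was 0.54 (0.32 with normexp). Some of them were dim, such as Pax5 with signals of 20.6 and 26.6. Brighter probes alone left 6 of the genes with a median of 0.41, 5 higher in the CD8+ sample and 1 in the CD4+ sample. Ms4a1 (CD20), a B cell surface protein, was 1.08-fold higher, at 3035 and 2915 in the CD4+ and CD8+ samples before scaling, and turned direction with normexp (-0.12) and with the series values (-0.12). The summed signal was 21.3 and 32.0 times the 75th percentile, and the part of B cells in the receptor values was not tested. Of 8 neutrophil markers 7 had a probe, 4 were above background on both arrays with a median of 0.08 (S100a8 at -0.03), and Elane was not above background on either (summed signals 2.53 and 2.94 times). The 6 NK cell markers were split 3 and 3, with a median of -0.36 and summed signals of 21.4 and 11.6 times. Most of both sums came from Tyrobp, with signals of 10166 and 3997 on the CD4+ and CD8+ samples. Toward CD4+ lay Klrb1c by 5.07-fold (3.14-fold with normexp), Ncr1 by 4.40-fold (1.62-fold with normexp) and Tyrobp by 2.25-fold. Toward CD8+ lay Eomes by 10.03-fold (6.46-fold with normexp), Klrk1 by 1.46-fold and Klra8 by 1.36-fold. Whether the signals of this list came from NK cells or from the sorted T cells themselves was not tested.

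The 5 plasma cell markers had a median of -0.63 over 4 genes, with summed signals of 5.27 and 3.16 times. Prdm1 was 4.87-fold higher in the CD4+ sample (2.75-fold with normexp) and Tnfrsf17 at least 3.83-fold, a bound that was 1.48-fold with normexp and 1.78-fold with the series values. Jchain was 1.44-fold higher there, and Sdc1 1.37-fold, which turned direction with normexp (0.12) and the series values (0.02). Of the 7 platelet and red cell markers 6 had a probe, 4 of the 5 on both arrays were toward CD8+, and their median was 0.59 (summed signals 5.73 and 5.06 times). The platelet factor Pf4 was 1.69-fold higher in the CD8+ sample, while the haemoglobin gene Hba-a1 lay at -0.30, with signals of 2578 and 1847 on the CD4+ and CD8+ samples. The integrin chain gene Itga2b was at least 2.32-fold higher in the CD8+ sample, and 1.27-fold with normexp or 1.48-fold with the series values, so its 2-fold call was then lost.

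**Figure D4:**
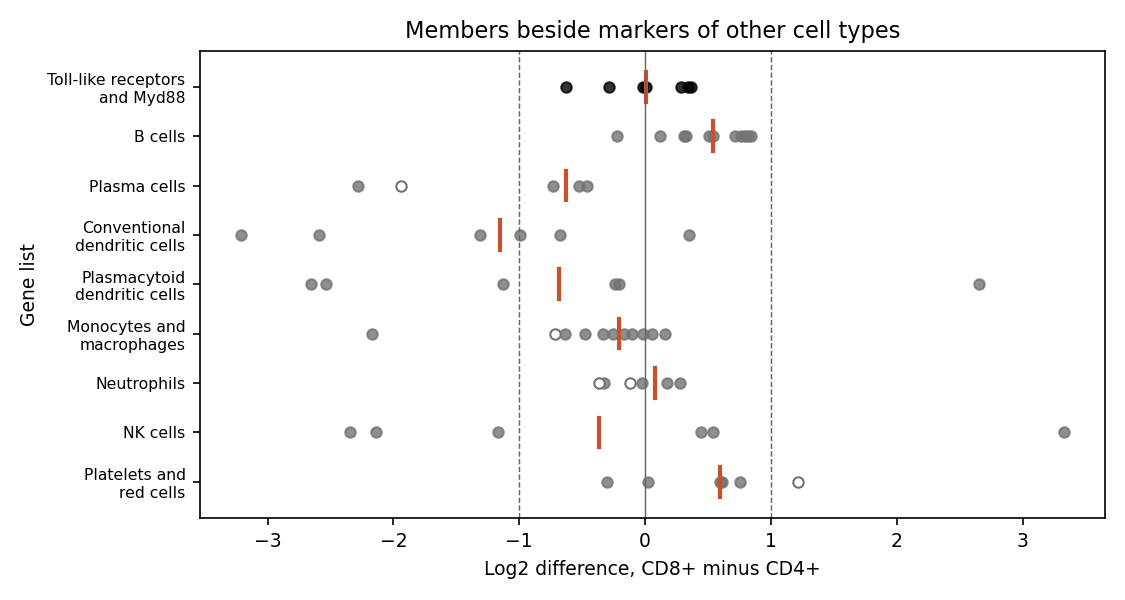
Log2 difference, CD8+ minus CD4+, of the 7 members measured on both arrays (black) and of markers of other cell types (grey, open where only a bound is known); each orange bar is the median over filled points and dashed lines mark 2-fold. The members centre on 0.00, the B cell markers on 0.54 and the conventional dendritic cell markers on -1.15.

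**Figure D5:**
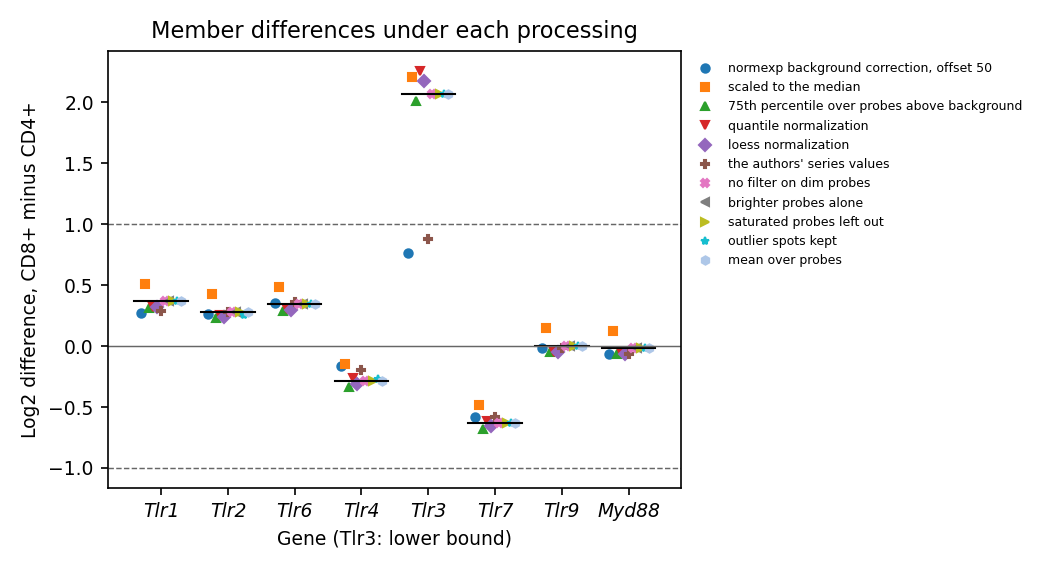
Log2 difference, CD8+ minus CD4+, of each measured member under 11 alternative ways of processing (symbols) beside the value reported here (black bar); dashed lines mark 2-fold. Tlr1, Tlr2 and Tlr6 stay above 0 and Tlr4 and Tlr7 below 0 wherever they have a value, Tlr9 and Myd88 cross 0, and the Tlr3 bound runs from 0.76 to 2.26. Some alternatives, such as probe means, could not move a gene with 1 probe.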

How the data were processed

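Total RNA of each sorted population was labelled with Cy3 and hybridised to a one-colour Agilent mouse array, per the labels' protocols; both arrays lay on 1 slide. The deposited files hold linear intensity values made with Feature Extraction 10.1.1.1, per the file headers (Agilent Feature Extraction 9.1, per the submitters' processing notes). The authors' series values equal the median pixel intensity at 45018 of 45018 spots: linear, uncentred, not background-subtracted, with medians of 80 and 73.

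Each processed signal was taken as log2 minus the 75th percentile over 43379 non-control spots (signals of 508 and 449.9 for CD4+ and CD8+). Outlier spots (99 and 92) were left out and spots of a probe averaged. A probe counted as above background where most of its spots did. A gene took its brightest probe, first among those above background on both arrays. A gene above background on 1 array was set against a level of the other array. This was the higher of its own dim level and the lowest level well above background there (-5.30 for CD4+, -4.94 for CD8+). The rule gives "at least" folds, which leave out the error of the dim signal. Some genes that were not called lay above that lowest level, so these bounds are nominal. Of 41174 probes, 24844 (60.3%) were named by accession through a RefSeq table of GRCm38.p6; none had several symbols and 16330 had none. The file headers name build mm9, so the table gave names, promoters and neighbours only.

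The members and lists were chosen with earlier results of these data known. Named were all members, pathway genes at least 2-fold apart with a fixed set (Tirap, Ticam1, Ticam2, Sarm1, Unc93b1, Irak1, Irak2, Irak4, Traf6), and markers 2-fold apart with the first 2 of each list. The values of 1 marker under this rule are not reported here. Cd180, Ly96, Ly86, Lbp, Cnpy3, Hsp90b1, Il18r1, Spic, Xcr1, Elane, Cx3cr1, S100a8, Klrk1, Klra8 and Hba-a1 were chosen after their values were seen, and the motifs after the promoters had been read. There was no replicate array and hence no p-value; having 2 arrays limits precision. The computation was checked on simulated data with Python 3.11.15, numpy 2.4.6, pandas 2.3.3, matplotlib 3.10.9, R 4.3.3 and limma 3.58.1.

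Alternatives were normexp correction (offset 50, on the median signal, as no mean signal column was in the files), median scaling, a percentile over detected probes only, loess (span 0.3) and quantile normalization, the series values, all probes without a filter, brighter probes alone, saturated probes removed, all outlier spots retained, probe means and a 4-fold threshold.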

Additional observations from a re-analysis of the deposited data

How the results depend on the processing

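The direction of Tlr1, Tlr2 and Tlr6 held under all 11 alternative values, and that of Tlr4 and Tlr7 under the 10 that gave one. Brighter probes alone left out Tlr3, Tlr4 and Tlr7. Several alternatives could not move these genes, each of which has 1 probe. Dropping the filter, removing saturated probes, taking probe means and, where a value was left, brighter probes alone repeated the main value. Keeping outlier spots changed only Tlr2 and Tlr4. Only the scaling, normalization and signal choices could move all of them. Of these 5 members none reached 2-fold under any alternative. Their ranges were 0.28 to 0.51 for Tlr1, 0.23 to 0.42 for Tlr2, 0.29 to 0.49 for Tlr6, -0.34 to -0.15 for Tlr4 and -0.68 to -0.49 for Tlr7. Median scaling moved the median of all genes from 0.02 to 0.17, a shift that all members share. It also gave 321 genes at least 2-fold toward CD8+ and 366 toward CD4+ (46.7% toward CD8+), against 233 and 458 (33.7%).

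The count of members 2-fold or more toward CD8+ was 1 (Tlr3) and became 0 with normexp, the series values or brighter probes alone; the count toward CD4+ was 0 throughout. Genes 2-fold or more toward CD8+ and CD4+ numbered 123 and 220 under normexp, 141 and 269 for the series values, 618 and 1277 without the filter, 103 and 133 with brighter probes alone, and 51 and 111 at 4-fold. Pathway genes numbered 0 and 1 under normexp, 1 and 1 for the series values, 0 and 0 with brighter probes alone, and 0 and 1 at 4-fold, against 2 and 3. The cause of these changes was not tested, apart from the fewer genes that brighter probes leave and the higher bar of 4-fold. Without the filter, Tlr8 had a difference of -0.11. Dim spots limit Tlr3 and Tlr8. No paired analysis was possible because each cell type had 1 array.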
